A study of Rattus norvegicus with 90 samples.

Results

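Among 40071 rat transcripts, 50 were near zero in the liver of vehicle-treated rats and present in every liver taken 24 h after a high dose of thioacetamide. They were selected on these values alone. A member had a mean below 0.1 CPM (the estimated count scaled to 1000000 transcript counts per library) in 4 vehicle livers at 24 h and at least 1 CPM in each of the 5 high-dose livers at 24 h. The first criterion was met by 20643 transcripts and the second by 14137. The rise of the 50 transcripts between these 2 groups is therefore a description of how they were found and was not tested. The files name transcripts by Ensembl identifier and nothing used here pairs an identifier with a gene, so the members are described without gene names.

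Thioacetamide is a hepatotoxin that liver enzymes convert to reactive metabolites. Injury begins around the central vein of the hepatic lobule, where hepatocytes die and macrophages and neutrophils then gather, and repeated exposure leads to fibrosis. A transcript that is near zero in a resting organ can become measurable because cells of that organ start to make it or because cells that already carry it arrive, and in RNA from whole tissue more cells of a type and more RNA per cell cannot be told apart. One transcript of a gene can also be near zero while another transcript of the same gene is abundant, and reads that match several transcripts are divided among them by the quantification.

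Male Sprague-Dawley rats with a jugular vein catheter, bought at 10 weeks of age, received 1 intraperitoneal injection of saline (vehicle, 3 ml/kg), 25 mg/kg of thioacetamide (low dose), or 100 mg/kg (high dose). Liver, kidney, and heart were taken from the same rats 8 or 24 h later, with 5 rats for each dose and time, which gives 18 groups and 90 libraries of poly-A RNA. The rats of the 8 h study had no food after the injection, whereas those of the 24 h study had food at first and none for the last 8 h. Both studies thus ended with 8 h without food. Feeding after the injection still differed between the times, as did the hours of exposure. Kidney and heart were powdered whole before RNA isolation. The organ labels could not be checked against marker genes, which would need gene names.

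The libraries held between 13430000 and 34299100 transcript counts each (median 21741200), so that 1 count was worth between 0.0292 and 0.0745 CPM. The limit of 0.1 CPM thus corresponds to only a few counts per library. One vehicle liver at 24 h, the library MS-1, was left out of the selection because it held the same counts as MS-9, a low-dose liver at 8 h. Over 15797 transcripts compared, 99.96% of the counts of this pair lay within 1 count of each other, and so did those of all 50 members. In MS-1 the members summed to 105.01 CPM and 29 of them reached 1 CPM, against 0 in each of the other 4 vehicle livers of that time. With MS-1 kept as a vehicle sample, 12 of the 50 transcripts still met the criteria. For the low dose at 8 h, which includes MS-9, values without it are added below.

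Summed over the 50 transcripts, the level was 1.05 to 3.30 CPM in the 4 vehicle livers at 24 h and 157 to 361 CPM in the 5 high-dose livers, which is the contrast that chose them. In samples that played no part in the choice, the sum was 4.47 to 18.7 CPM in the vehicle livers at 8 h. It was 51.1 to 105.01 CPM after the low dose at 8 h, where the highest value was that of MS-9 and the next 75.7 CPM. It was 81.1 to 189 CPM after the high dose at 8 h and 43.5 to 116 CPM after the low dose at 24 h. None of these treated livers overlapped with the vehicle livers at 8 h. In vehicle-treated rats the sum was already 122 to 213 CPM in the kidney and 96.6 to 116 CPM in the heart at 24 h. The kidneys of the high-dose group at 24 h lay above that range, at 236 to 279 CPM, and the hearts of that group, at 78.7 to 99.4 CPM, overlapped with the vehicle hearts. Over the vehicle kidneys of both times, ENSRNOT00000003908 and ENSRNOT00000027312 held 66.3% of the sum. At 24 h ENSRNOT00000027312 measured 18.6 to 59.4 CPM in vehicle kidneys and 60.3 to 77.5 CPM in high-dose kidneys, and ENSRNOT00000003908 overlapped between these groups. Neither was among the members called in the kidney at that time in the tests below.

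**Figure D1:**
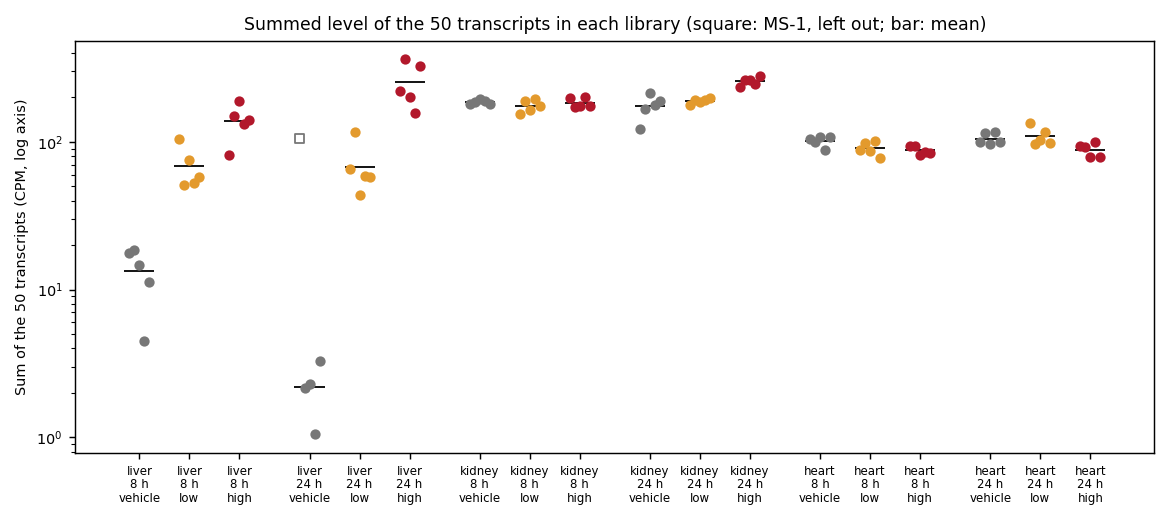
Sum of the 50 transcripts in each library (CPM, log axis), by organ, time, and dose, with a bar at the mean of each group. The hollow square is MS-1, at 105.01 CPM. Vehicle livers at 24 h lie between 1.05 and 3.30 CPM and high-dose livers at 24 h between 157 and 361 CPM, and these 2 groups chose the transcripts.

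Within the high-dose livers at 24 h, the members were mostly of modest abundance. Mean levels ran from 1.34 to 44.6 CPM with a median of 2.88 CPM. Only 5 members had a mean of 10 CPM or more, 33 lay between 2 and 10 CPM, and 12 were below 2 CPM. The 5 most abundant carried 42.3% of the members' summed mean. The libraries of this group did not contribute equally. MS-6 held the highest value for 28 members and MS-26 for 16, whereas MS-91 had the lowest sum, 157 CPM. Leaving MS-91 out of the selection would have raised the number of members to 81.

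The selection also depends on the scaling. CPM divides by the library total, and the 100 most abundant transcripts took 49.5% to 53.6% of the counts in the 4 vehicle livers but 37.4% to 45.1% in the high-dose livers. Over 15260 transcripts with a mean of 1 CPM or more, the median transcript was 0.87 higher in CPM on the log2 scale after the high dose, and 0.04 higher after TMM scaling, which compares libraries by their typical transcript. With TMM-scaled totals, 29 of the 50 transcripts met the same criteria. The tests below use TMM scaling.

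The transcripts nearest to the limits show how narrow they were. Inside the selection, the highest vehicle means were 0.0989 CPM for ENSRNOT00000027312, 0.0970 CPM for ENSRNOT00000061580, and 0.0956 CPM for ENSRNOT00000060888. Just outside stood ENSRNOT00000012690 at 0.10001 CPM, ENSRNOT00000019415 at 0.103 CPM, and ENSRNOT00000043959 at 0.108 CPM. On the other side, the lowest high-dose values inside were 1.02 CPM for ENSRNOT00000061580, 1.03 CPM for ENSRNOT00000027312, and 1.07 CPM for ENSRNOT00000071487. Those just outside were 0.989 CPM for ENSRNOT00000066277, 0.971 CPM for ENSRNOT00000082907, and 0.955 CPM for ENSRNOT00000081652.

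The most abundant member at 24 h was ENSRNOT00000000256, a transcript of 850 bases. It measured 51.1, 59.5, 29.4, 20.01, and 62.7 CPM in the high-dose livers at 24 h, and 0.0528, 0.0487, 0, and 0.205 CPM in the 4 vehicle livers. The low dose at 24 h gave 0.953, 7.20, 0.890, 4.18, and 1.46 CPM, all below the high-dose livers and all above the vehicle livers. The selection used both of those groups, so a place between them is favored by it and was not tested. At 8 h, values were 2.21, 10.1, 6.26, 4.93, and 9.37 CPM after the high dose and 0.0367 to 0.281 CPM with vehicle. The 8 h groups did not overlap, and the log2 fold change was 5.33 ± 0.52 (SE, n = 5 and 5, adjusted p = 1.98e-05, edgeR quasi-likelihood test).

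ENSRNOT00000080410, of 2497 bases, was next at 24 h, with 20.3, 25.1, 15.4, 11.3, and 26.2 CPM after the high dose. In the 8 h vehicle livers it had a single count in all, at 0.0367 CPM in 1 of 5 rats, and it measured 2.96, 5.59, 8.43, 10.1, and 4.64 CPM after the high dose at that time. No value overlapped between the 8 h groups. The ratio of pooled CPM at 8 h was 816 with a 95% interval of 146 to 32245 from counting error alone, and the edgeR adjusted p was 3.38e-06. Outside the liver this transcript was mostly present, but it was at 0 in the kidneys MS-48, MS-50, and MS-36. Of its counts above 0 over all libraries, 62.5% were whole. In vehicle-treated rats at 8 h it measured 2.10 to 6.13 CPM in the kidney and 1.59 to 3.39 CPM in the heart.

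ENSRNOT00000010141, of 3138 bases, measured 12.4, 26.4, 11.9, 8.81, and 17.1 CPM in the high-dose livers at 24 h. At 8 h the high-dose livers spread widely, with 0.504, 3.22, 15.2, 1.28, and 6.73 CPM, against 0.0434 to 0.1998 CPM in 4 vehicle livers and 0 in the fifth. Even the lowest high-dose liver lay above all vehicle livers, and the log2 fold change was 5.52 ± 1.004 (SE, n = 5 and 5, adjusted p = 0.00103, edgeR).

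ENSRNOT00000000792, of 3233 bases, had a higher mean at 8 h than at 24 h after the high dose. The values at these times overlapped, and the difference was not tested. The high-dose livers held 9.07, 23.5, 25.2, 22.6, and 24.9 CPM at 8 h and 12.1, 20.6, 18.02, 5.43, and 14.2 CPM at 24 h. Vehicle livers lay between 0.127 and 0.421 CPM at 8 h. The change at 8 h was 6.52 ± 0.39 on the log2 scale (SE, n = 5 and 5, adjusted p = 2.06e-06, edgeR). It was also one of 3 members that were higher at 8 h after the high dose than after the low dose, which gave 1.99 to 7.31 CPM, a log2 difference of 2.76 ± 0.38 (SE, n = 5 and 5, adjusted p = 0.00224, edgeR).

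ENSRNOT00000075989, of 1436 bases, was uneven among the high-dose livers. It measured 5.36, 11.498, 8.68, 6.71, and 35.7 CPM after the high dose at 24 h, and the highest of these, in MS-26, stood apart from the rest. At 8 h the high-dose livers had 0, 0.999, 2.58, 0, and 0 CPM, and 4 of 5 vehicle livers were at 0 with 0.224 CPM in the fifth, so these groups overlapped. Its estimated count was a whole number in none of the 52 libraries of any organ in which it was above 0, as happens where reads are divided among transcripts.

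The other members among the 10 most abundant fell into 2 kinds. ENSRNOT00000085740 and ENSRNOT00000078299 had whole counts in every library in which they were above 0, and their vehicle livers were low throughout. ENSRNOT00000085740, only 131 bases long, measured 14.8, 22.3, 14.03, 19.7, and 16.1 CPM at 8 h after the high dose, 3.84 to 9.16 CPM after the low dose, and 0.0845 to 0.695 CPM with vehicle. None of these 3 groups overlapped with another, and the high dose exceeded the low dose by 1.501 ± 0.23 on the log2 scale (SE, n = 5 and 5, adjusted p = 0.0033, edgeR). By 24 h it had 3.75 to 10.9 CPM after the high dose. ENSRNOT00000078299, of 756 bases, measured 0.630, 5.51, 9.49, 4.40, and 2.99 CPM at 8 h after the high dose against at most 0.140 CPM with vehicle, a log2 fold change of 6.74 ± 0.92 (SE, n = 5 and 5, adjusted p = 0.000157, edgeR).

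The other kind switched between near zero and several CPM among rats of a single group, with counts that were never or hardly ever whole. ENSRNOT00000086921 measured 3.60, 8.497, and 3.28 CPM in 3 of the vehicle livers at 8 h and under 0.001 CPM in the other 2. After the high dose at 8 h, 3 livers had 3.51 to 5.25 CPM and 2 had under 0.001 CPM. Its treated groups at 8 h overlapped with vehicle, and its log2 fold change at 8 h was -0.40 ± 1.33 (SE, n = 5 and 5, adjusted p = 0.8292, edgeR). ENSRNOT00000073341 behaved alike, with 5.14, 0.184, 4.55, 0, and 0 CPM in the vehicle livers at 8 h and 4.39, 8.26, 7.75, 0.131, and 3.88 CPM after the high dose, a difference of 1.15 ± 1.23 on the log2 scale (SE, n = 5 and 5, adjusted p = 0.467, edgeR). ENSRNOT00000071487 was at 0 in every vehicle liver and every low-dose liver at 24 h, yet it held 1.37 to 7.79 CPM in 4 of the 5 low-dose livers at 8 h. In the high-dose livers it measured 7.54, 4.56, 3.53, 3.68, and 0.0741 CPM at 8 h and 4.66, 12.6, 6.30, 1.07, and 18.2 CPM at 24 h.

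**Figure D2:**
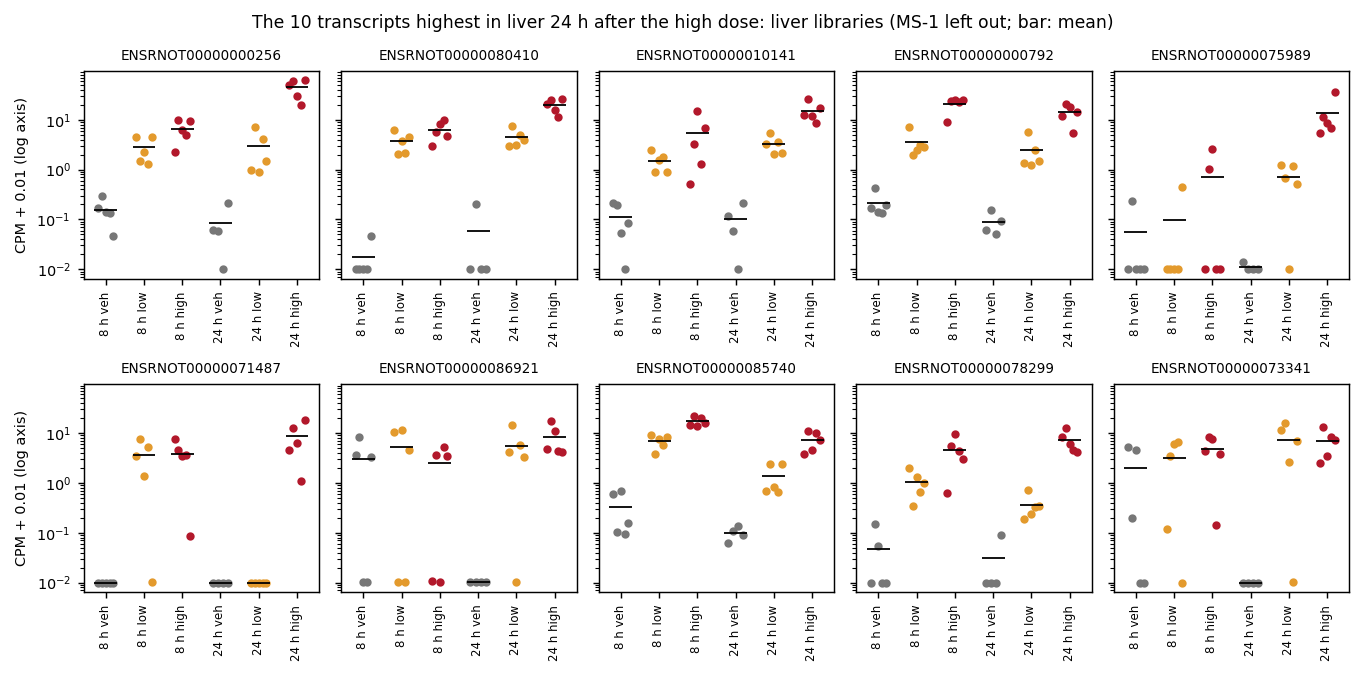
Liver values of the 10 members with the highest mean 24 h after the high dose (CPM + 0.01, log axis), one point per rat and a bar at each mean, without MS-1. ENSRNOT00000086921 and ENSRNOT00000073341 jump between near zero and several CPM within the 8 h vehicle group, whereas ENSRNOT00000000792 and ENSRNOT00000085740 separate the 8 h groups fully.

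Over the whole selection, 14 members were at 0 in one rat and at 1 CPM or more in another rat of the same group, 8 of them in a liver group. Values just above 0 did not count here, so ENSRNOT00000086921 and ENSRNOT00000071487 are not among the 14, and members like them were missed. The share of all transcripts that did so was not computed. Whole counts in all 5 high-dose livers at 24 h, which leave no sign of divided reads, were found for 26 members (52%) and for 44.8% of all transcripts that met the high-dose criterion. No whole count in any of the 5 was found for 16 members (32%) and for 43.8% of those transcripts. The members ranged from 131 to 6511 bases, with a median of 2018.5 bases, against 1281 bases for all transcripts, 635 bases for the transcripts that met the vehicle criterion, and 2200 bases for those that met the high-dose criterion. The part of divided reads in these levels was not tested.

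The question for the 8 h livers was whether transcripts selected at 24 h were already near zero without treatment and already present after it. Neither held for the whole selection. Of the 50 members, 22 also had a mean below 0.1 CPM in the vehicle livers at 8 h, where 96.0% of all transcripts that met the vehicle criterion stayed below it, and 3 had a mean of 1 CPM or more. After the high dose at 8 h, 28 members had a mean of 1 CPM or more and 14 reached it in each of the 5 rats. After the low dose at 8 h these numbers were 24 and 9, and without MS-9 they were 20 and 9.

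Tested against vehicle at 8 h, no member was lower after the high dose. A default filter on low counts left 30 of the 50 in the test, and 19 rose (adjusted p at or below 0.01, log2 fold change at or above 0.866), against 12.4% of all transcripts tested. Members with few counts passed that filter mainly through the treated livers, so the same test was also run on transcripts with any counts. It took in all 50 members, and 26 rose, against 7.34% of the transcripts tested. In 29 members every high-dose liver lay above every vehicle liver, as it did in 10.7% of all transcripts.

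After those described above, the largest changes at 8 h after the high dose belonged to members of lower abundance. ENSRNOT00000003745, of 1072 bases, measured 2.90, 4.55, 5.75, 5.28, and 4.59 CPM, with 0.0400, 0.0468, 0, 0, and 0 CPM in the vehicle livers. Pooled CPM was 285 times as high, with a 95% counting interval of 78.7 to 2363, and the edgeR adjusted p was 2.79e-06. Its levels at 8 h after the high dose were above those at 24 h, 1.37 to 2.85 CPM, and the high dose exceeded the low dose at 8 h by 3.02 ± 0.52 on the log2 scale (SE, n = 5 and 5, adjusted p = 0.0056, edgeR).

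ENSRNOT00000039221 was at 0 in all 5 vehicle livers at 8 h and measured 0.504, 2.41, 3.23, 2.19, and 1.36 CPM after the high dose, at least 80.5-fold higher when the vehicle group is set to 3 counts (edgeR adjusted p = 0.000335). ENSRNOT00000022519 was at most 0.000105 CPM with vehicle and 1.007 to 2.70 CPM after the high dose, with an edgeR adjusted p of 7.31e-05. Its count was whole in none of the 36 libraries in which it was above 0. In kidneys at 24 h after the low dose it ran from 0 to 2.13 CPM. ENSRNOT00000072176 measured 2.62 to 4.39 CPM after the high dose and 1.61 to 2.79 CPM after the low dose, against at most 0.0514 CPM with vehicle. Both of its treated groups were thus clear of vehicle, with edgeR adjusted p-values of 2.67e-06 and 3.2e-05, the latter 0.000115 without MS-9. ENSRNOT00000008302 had 1.89 to 4.23 CPM after the high dose and at most 0.130 CPM with vehicle, and its log2 fold change was 5.60 ± 0.60 (SE, n = 5 and 5, adjusted p = 3.5e-05, edgeR).

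ENSRNOT00000027312 and ENSRNOT00000061580, which lay nearest to both limits of the selection, were higher at 8 h after the high dose too. ENSRNOT00000027312 measured 1.32 to 6.61 CPM against at most 0.174 CPM with vehicle, a log2 fold change of 5.12 ± 0.70 (SE, n = 5 and 5, adjusted p = 0.000164, edgeR). For ENSRNOT00000061580 the change was 3.96 ± 1.02 (SE, n = 5 and 5, adjusted p = 0.0083, edgeR). A single high-dose liver had 6.19 CPM and the others 0.502 to 1.12 CPM, and without that liver the change was 2.76 with an edgeR adjusted p of 0.0233. In 6 other fits that left out a single liver it was not called either, with adjusted p-values from 0.0124 to 0.0233 over the 7 fits. ENSRNOT00000060888, which did not pass the filter on low counts, measured 0.189, 1.57, 6.16, 0.146, and 3.19 CPM after the high dose and 0 to 0.217 CPM with vehicle, so that 2 of the high-dose livers lay within the vehicle range. In the edgeR test without that filter its adjusted p was 0.00725.

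Fewer members passed the test after the low dose at 8 h. Of 24 members that passed the filter on low counts, 12 rose and none fell in edgeR, against 5.78% of the transcripts tested that rose. Without that filter, all 50 were tested and 18 rose, against 3.14%. With MS-9 left out, 11 rose with the filter, and the test without the filter was not run without MS-9. The share of all transcripts that rose without MS-9 is not at hand. In 40 members the mean was lower after the low dose than after the high dose, and the median ratio of low to high was 0.6247. Without MS-9 these values were 39 and 0.531. When the doses were compared directly, 37 members passed the filter and 3 were higher after the high dose, against 1.73% of the transcripts tested. They were ENSRNOT00000000792, ENSRNOT00000003745, and ENSRNOT00000085740, all described above, and the same 3 were found without MS-9, with log2 differences of 3.17, 3.49, and 1.61. This number was 1 without MS-15, MS-18, or MS-11, 5 without the high-dose liver MS-8, and 2 or 3 without any other liver.

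Comparison of the high-dose livers at the 2 times showed that the members did not follow one course. For 10 members the mean was higher at 8 h than at 24 h. The ratio of the 8 h to the 24 h mean was 2.43 for ENSRNOT00000087031, 2.39 for ENSRNOT00000085740, and 2.30 for ENSRNOT00000003745, and it was 1.10 to 1.65 for the other 7. The median ratio over all 50 was 0.382, and 23 members had at least 0.5 of their 24 h level by 8 h. Because the members were required to be high at 24 h, a ratio below 1 is favored by the selection. The difference between the times was not tested for the same reason.

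At the other end, 5 members had less than 0.1 of their 24 h level at 8 h. ENSRNOT00000061847, of 516 bases and picked after its values were seen, was at 0 in 4 of 5 high-dose livers at 8 h and had 0.063 CPM in the fifth. At 24 h it measured 1.51, 4.63, 1.36, 1.17, and 4.50 CPM after the high dose and 0.499, 1.83, 0.578, 0.583, and 0.821 CPM after the low dose. ENSRNOT00000087503, of 336 bases and picked in the same way, had at most 0.063 CPM in the high-dose livers at 8 h and 1.17 to 1.73 CPM at 24 h. In edgeR's test at 8 h after the high dose without the filter on low counts, their adjusted p-values were 0.394 and 0.751.

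**Figure D3:**
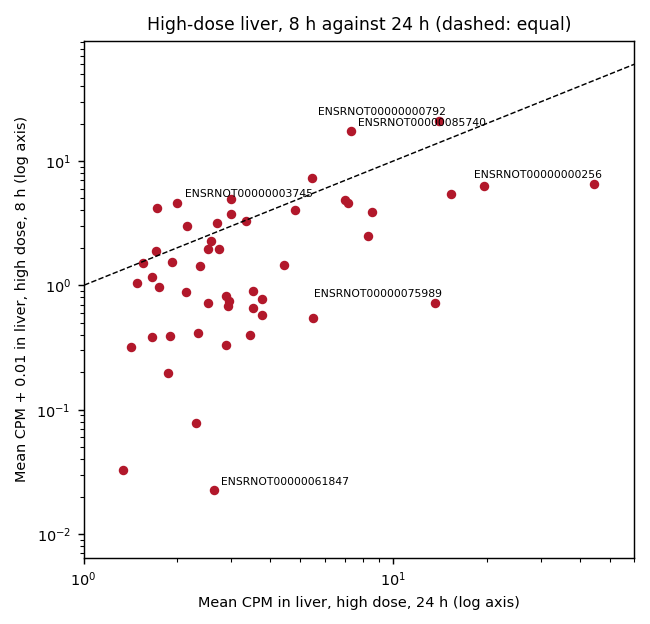
Mean level of each member in high-dose livers at 8 h (CPM + 0.01) against 24 h (CPM), both axes logarithmic, with a dashed line where the times are equal. The 10 points above the line include ENSRNOT00000085740 and ENSRNOT00000000792, and ENSRNOT00000061847 lies lowest, with a mean of 0.0126 CPM at 8 h.

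After the low dose at 24 h, most members were present at a fraction of the high-dose level. A mean of 1 CPM or more was reached by 24 of 50, and 7 reached 1 CPM in each of the 5 livers, or 11 with the liver MS-7 left out. Members had to be high after the high dose at 24 h, so a lower low-dose mean is favored by the selection and was not tested. With 49 of 50 the low-dose mean was below the high-dose mean, and the median ratio was 0.327. The exception was ENSRNOT00000073341, with 11.3, 16.2, 2.60, 0.000133, and 6.87 CPM after the low dose and 2.55, 13.1, 3.46, 8.51, and 7.23 CPM after the high dose, which overlapped. Of the most abundant members at the low dose, ENSRNOT00000086921 measured 4.09, 14.6, 0.000329, 5.86, and 3.34 CPM, ENSRNOT00000080410 2.95, 7.57, 3.07, 4.89, and 3.92 CPM, and ENSRNOT00000010141 3.22, 5.37, 2.05, 3.63, and 2.13 CPM. The latter 2 lay in narrow ranges, whereas the first again dropped to near zero in 1 rat.

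The vehicle livers at 24 h were chosen to be low. The low dose at 24 h was therefore tested against the vehicle livers at 8 h. These groups also differ in time and in feeding after the injection, though both had no food for the last 8 h. Of 30 members that passed the filter on low counts, 11 were higher in edgeR and none lower, against 3.46% of the transcripts tested. Without the filter, 14 of 49 tested were higher, against 1.79%. Every low-dose liver at 24 h lay above every vehicle liver at 8 h for 33 members, as it did for 17.02% of all transcripts. Leaving out the vehicle liver MS-16 raised the number of called members from 11 to 17, and the share of all transcripts called in that fit is not at hand.

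ENSRNOT00000010141 was higher in this comparison by 4.47 ± 0.56 on the log2 scale (SE, n = 5 and 5, adjusted p = 0.000319, edgeR). For ENSRNOT00000080410 pooled CPM was 529 times as high, with a 95% counting interval of 94.5 to 20930 and an edgeR adjusted p of 5.95e-05. The 2 members with unstable values did not pass, at an edgeR adjusted p of 0.479 for ENSRNOT00000073341 and 0.855 for ENSRNOT00000086921. ENSRNOT00000061847, at 0 in all vehicle livers at 8 h, was at least 32.5-fold higher at 24 h after the low dose (edgeR adjusted p = 0.00185).

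A transcript missing from the vehicle liver need not be missing from the rat. In vehicle-treated kidneys, 17 members had a mean of 1 CPM or more at 8 h and 16 at 24 h, and in vehicle-treated hearts 14 and 18. Of all 20643 transcripts that met the vehicle criterion in the liver, 5.34% and 5.14% did so in the kidney and 4.45% and 4.64% in the heart, but the members were also required to reach 1 CPM in the treated liver. A mean of 1 CPM or more at both times was found for 9 members in the vehicle kidney only, 8 in the vehicle heart only, and 6 in both. The other organ could still reach 1 CPM at a single time. Among the 9, ENSRNOT00000061580 had a vehicle heart mean of 1.59 CPM at 24 h. Among the 8, ENSRNOT00000080043 had a vehicle kidney mean of 2.44 CPM at 8 h. A further 6 had a mean below 0.1 CPM in both organs at both times, and the remaining 21 were low or differed between the times.

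**Figure D4:**
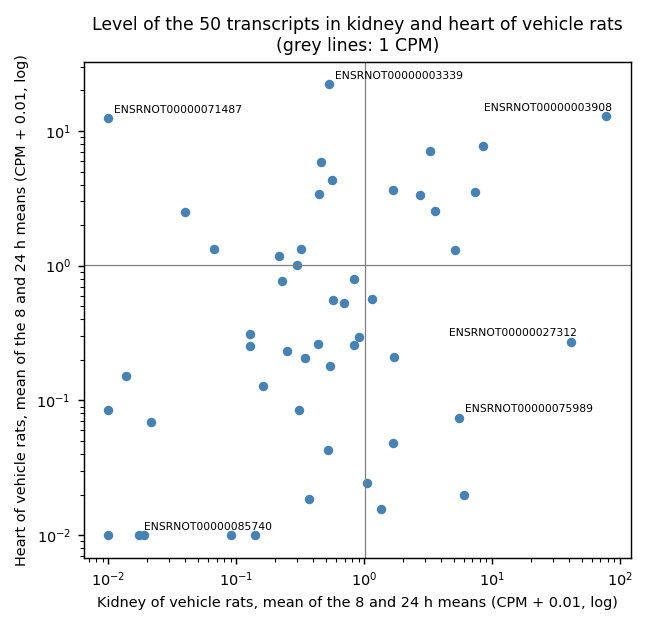
Mean level of each member in vehicle-treated kidney and heart (CPM + 0.01, both axes logarithmic, mean of the 8 and 24 h group means), with grey lines at 1 CPM. ENSRNOT00000003908 stands at upper right, ENSRNOT00000027312 is high in kidney alone, and ENSRNOT00000003339 and ENSRNOT00000071487 are high in heart alone.

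The most abundant member in vehicle kidneys was ENSRNOT00000003908, picked after its values were seen, with 52.2 to 95.3 CPM in vehicle kidneys and 10.006 to 22.1 CPM in vehicle hearts at 24 h. In the liver it measured 2.50, 6.32, 1.997, 1.37, and 6.65 CPM at 24 h after the high dose and at most 0.0411 CPM in the 4 vehicle livers. The liver level after treatment thus stayed below that of every resting kidney. ENSRNOT00000027312, the member with the highest vehicle mean in the selection, was 18.6 to 59.4 CPM in vehicle kidneys at 24 h and 0.274 to 0.6251 CPM in hearts, against 1.03 to 4.68 CPM in the high-dose livers. Together this pair held 66.3% of the members' summed level in vehicle kidneys.

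ENSRNOT00000003339, also picked after its values were seen, was the most abundant member in vehicle hearts, with 18.6 to 27.002 CPM in vehicle hearts at 24 h, 0.270 to 0.825 CPM in kidneys, and 2.16 to 3.57 CPM in high-dose livers. ENSRNOT00000071487 held 8.15 to 20.7 CPM in vehicle hearts at 24 h and was at 0 in every vehicle kidney. ENSRNOT00000075989 showed the reverse, with 2.97 to 9.26 CPM in vehicle kidneys at 24 h and at most 0.331 CPM in hearts. These members thus differed in which organ held the higher resting level. Another 6 members had a mean of 1 CPM or more in both organs at both times.

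The 6 members with means below 0.1 CPM in vehicle kidneys and hearts at both times were ENSRNOT00000085740, ENSRNOT00000003745, ENSRNOT00000067881, ENSRNOT00000013119, ENSRNOT00000012310, and ENSRNOT00000061847. Of these, ENSRNOT00000085740 had a mean of 0.324 CPM in the vehicle livers at 8 h, and the other 5 were below 0.1 CPM there too. ENSRNOT00000067881 measured 3.59, 10.1, 4.91, 2.10, and 6.84 CPM in high-dose livers at 24 h and was at 0 in every heart and every treated kidney. ENSRNOT00000012310 measured 3.88, 4.22, 3.62, 1.35, and 5.81 CPM in those livers, was at 0 in every vehicle kidney and heart, and had 0.0837 to 0.633 CPM in high-dose kidneys at 24 h. ENSRNOT00000013119 reached 2.15 to 6.93 CPM in the high-dose livers and 0.134 to 0.4933 CPM in the high-dose kidneys at 24 h. A value of 0 in a group allows a level of up to 3 counts over its 5 libraries, so low levels there were not detectable at this depth.

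In the kidney, few members rose after thioacetamide. At 24 h after the high dose, 30 members passed the filter on low counts, 5 rose and none fell in edgeR, against 2.15% of the transcripts tested that rose. Without the filter 4 of 48 rose, against 1.27%. With the filter they were ENSRNOT00000000792, ENSRNOT00000008302, ENSRNOT00000073216, ENSRNOT00000010141, and ENSRNOT00000080043. Leaving out single kidneys changed the number to between 2 and 6, and 8 of the 10 kidneys gave 2 or 3. At 8 h after the high dose, 26 members passed the filter and 1 rose, ENSRNOT00000000792, against 1.09%. Without the filter 1 of 47 rose, against 0.566%. At this dose and time edgeR called no member lower. DESeq2 called 3 members higher and 1 lower, against 336 and 267 of the 18597 transcripts tested.

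ENSRNOT00000000792 measured 2.57, 3.11, 2.14, 3.12, and 2.13 CPM in the kidney at 24 h after the high dose, and 0.0442, 0.251, 0.323, 0.178, and 0.118 CPM with vehicle. At 8 h it measured 6.52, 2.72, 4.59, 7.22, and 3.27 CPM after the high dose and 0.160 to 0.361 CPM with vehicle. No values overlapped at either time, and the log2 fold changes were 3.70 ± 0.42 at 24 h (SE, n = 5 and 5, adjusted p = 0.000244, edgeR) and 4.23 ± 0.39 at 8 h (SE, n = 5 and 5, adjusted p = 0.000149, edgeR). As in the liver, the mean after the high dose was higher at 8 h than at 24 h. Values of the times overlapped here too, and the difference was not tested.

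ENSRNOT00000008302 measured 1.55, 1.56, 2.45, 0.747, and 1.77 CPM in the kidney at 24 h after the high dose against 0.0838 to 0.370 CPM with vehicle, which did not overlap, a log2 fold change of 2.70 ± 0.43 (SE, n = 5 and 5, adjusted p = 0.00201, edgeR). ENSRNOT00000073216, of 2166 bases, measured 4.12, 2.84, 2.87, 1.17, and 2.33 CPM against 0.126 to 0.679 CPM, a change of 2.46 ± 0.45 (SE, n = 5 and 5, adjusted p = 0.00441, edgeR). It was not called in 6 of the 10 fits that left out a kidney, with adjusted p-values of 0.0102 to 0.0146. Its count was whole in none of the 66 libraries in which it was above 0. For ENSRNOT00000010141 the values were 1.78 to 2.96 CPM against 0.311 to 1.06 CPM, and the change of 1.85 ± 0.36 (SE, n = 5 and 5, adjusted p = 0.00639, edgeR) was no longer called in 8 of the 10 fits that left out a kidney, with adjusted p-values of 0.0108 to 0.0218. ENSRNOT00000080043 measured 2.09 to 8.05 CPM against 0.527 to 1.22 CPM, a change of 2.11 ± 0.42 (SE, n = 5 and 5, adjusted p = 0.00649, edgeR). That call was lost in 8 of the 10 fits, with adjusted p-values of 0.0127 to 0.0195, and with all 15 kidneys of that time in the fit, at 0.0397. The count of ENSRNOT00000080043 was whole in none of the 84 libraries in which it was above 0.

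No member rose in the kidney after the low dose in edgeR. At 8 h, where 0.175% of the transcripts tested were called higher, none of 27 members was. An unadjusted p under 0.05 was found for 5 of the 27 and for 11.9% of all transcripts tested. DESeq2 called 2 members higher and 2 lower, against 80 and 60 of the 18829 transcripts tested. At 24 h, where 0.0377% of the transcripts were called higher, none of 26 members was. An unadjusted p under 0.05 was found for 2 of the 26 and for 11.5% of all transcripts tested, and DESeq2 called none. Of the 30 kidney libraries, some carry numbers above 90. With a term for these numbers, 1 member was called higher at 8 h and 6 at 24 h after the high dose.

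The heart showed no member called in either direction by edgeR at any dose or time. After the high dose, 0.0171% of the transcripts tested were called higher at 8 h and 0.677% at 24 h. An unadjusted p under 0.05 was found for 6 of 23 members at 8 h, against 9.69% of all transcripts tested, and for 4 of 24 at 24 h, against 20.9%. DESeq2 called 1 member higher at 8 h, against 36 of the 17519 transcripts tested. At 24 h it called 1 member higher and 1 lower, against 200 and 86 of 17574. After the low dose, an unadjusted p under 0.05 was found for 6 of 24 members at 8 h, against 3.93%, and for 2 of 24 at 24 h, against 9.17%, and neither tool called any. The share of transcripts called higher by edgeR after the low dose was 0% at both times.

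Whether the change at 8 h after the high dose differed between organs was tested as the difference between the effects. The organs came from the same rats, but the labels do not say which libraries share a rat, so the fit treats the libraries as independent. Between liver and kidney, 42 members passed the filter over the 4 groups, and the effect was larger in the liver for 17 and smaller for none, against 8.53% of the transcripts tested that were larger. Between liver and heart, 35 passed, 16 were larger in the liver and none smaller, against 11.9%. Without the filter on low counts all 50 members were tested, and 16 were larger in the liver than in the kidney, against 3.74%, and 16 larger than in the heart, against 6.56%. These calls have no limit on size and an adjusted p of no more than 0.01 in edgeR.

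ENSRNOT00000000792, which rose in both liver and kidney, rose further in the liver, by 2.32 ± 0.57 on the log2 scale (SE, n = 5 in each of 4 groups, adjusted p = 0.0052, edgeR). For ENSRNOT00000000256 the difference was 5.51 ± 0.86 from the kidney (SE, n = 5 in each group, adjusted p = 0.000135, edgeR) and 4.10 ± 0.62 from the heart (SE, n = 5 in each group, adjusted p = 4.95e-05, edgeR). For ENSRNOT00000027312, abundant in the kidney, the difference from the kidney was 5.08 ± 0.68 (SE, n = 5 in each group, adjusted p = 2.94e-05, edgeR), and its own kidney change at 8 h did not pass the test (log2 fold change 0.08 ± 0.20, SE, n = 5 and 5, adjusted p = 0.851, edgeR). The heat map of group means shows the liver groups side by side with the other organs.

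**Figure D5:**
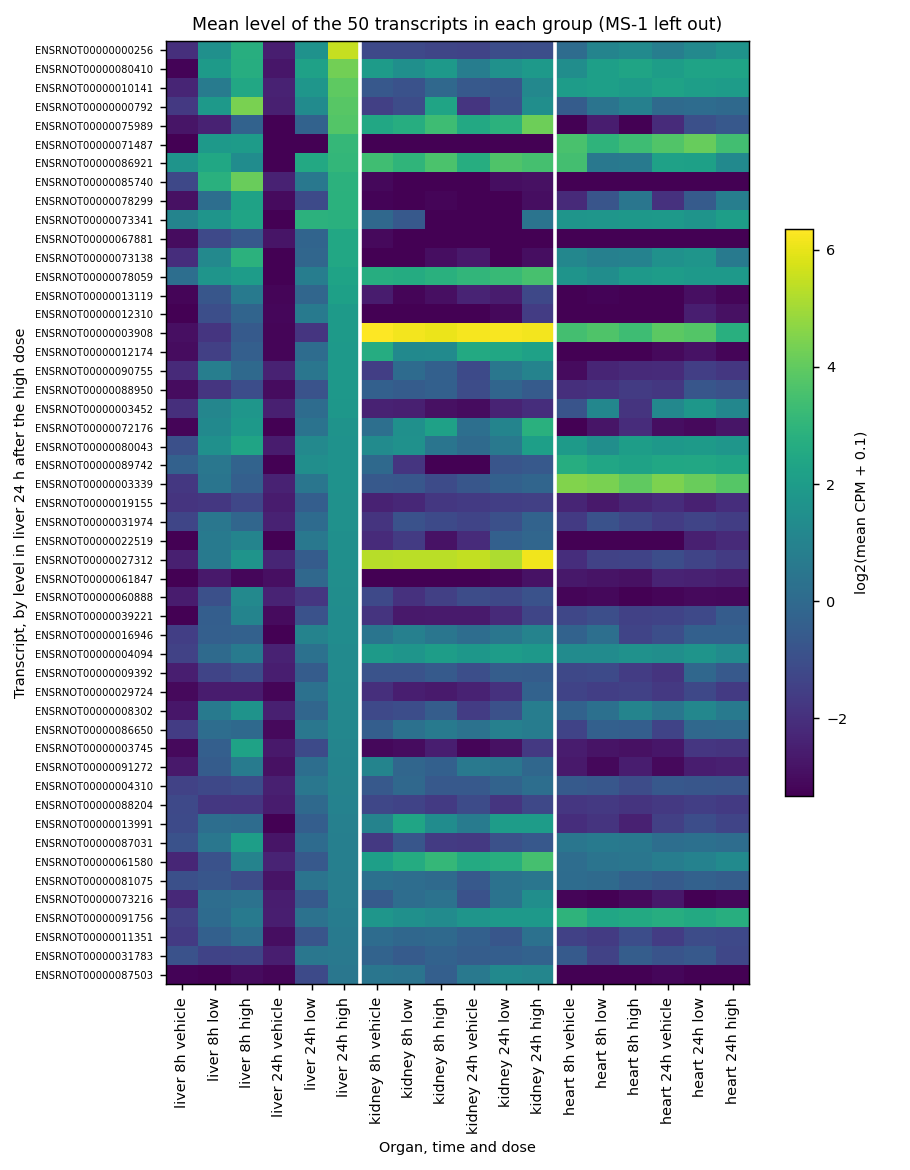
Group means of the 50 members, as log2(mean CPM + 0.1), in rows ordered by the level in liver 24 h after the high dose. The liver columns at 24 h run from dark with vehicle to light after the high dose, which is the contrast that chose the members, and ENSRNOT00000003908 is light in all 6 kidney columns, with means of 66.7 to 81.4 CPM.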

How the data were processed

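RNA was quantified in liver, kidney, and heart of 30 rats, 5 per dose and time, as poly-A libraries read as stranded 75-base pairs. Per the labels, the authors' files hold, for each library, estimated counts and TPM per target as kallisto writes them. The submitters' processing notes name kallisto 0.42.2 and the build Rnor_6.0. Deposited TPM was not used for any result. CPM was computed from the estimated counts of the 40071 transcript entries. The selection used CPM, and the library MS-1, whose counts repeat those of MS-9, was left out of it. Members and lists were chosen with earlier results of these data known.

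Tests were run on all transcripts with edgeR 4.0.16 in R 4.3.3 (quasi-likelihood test on estimated counts rounded to whole numbers, TMM scaling, the tool's default filter on low counts, only the groups compared in the fit), with Benjamini-Hochberg adjustment over all transcripts tested. Calls needed an adjusted p of at most 0.01 and a natural-log fold change of at least 0.6 (0.866 in log2), the thresholds of the study, and for differences between organs the adjusted p alone. Folds from pooled CPM carry exact 95% Poisson intervals for counting error only, and a group at 0 was set to 3 counts. A count within 0.001 of a whole number was taken as whole. Each test was checked on simulated data. Alternatives were DESeq2 1.42.0, no filter on low counts, no limit on fold change, one fit over the 15 samples that share organ and time, a term for library numbers above 90 in kidney, each sample left out, and other limits of the selection. Other tools were Python 3.11.15, numpy 2.4.6, pandas 2.3.3, scipy 1.17.1, and matplotlib 3.10.9.

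Transcripts named by rule were the 10 with the highest mean in high-dose livers at 24 h, the 8 with the largest log2 fold change among those called at 8 h, up to 4 called in kidney or heart with the smallest adjusted p, the 4 with the highest mean at the low dose at 24 h, and the 3 nearest to each limit on either side. The few others were picked after their values were seen, as were ENSRNOT00000080043, ENSRNOT00000087031, ENSRNOT00000067881, ENSRNOT00000012310, and ENSRNOT00000013119. The gene table used here, of another build, matched 0 of the identifiers, so gene lists, marker genes, promoters, and the summed level of each gene were not analysed here.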

Additional observations from a re-analysis of the deposited data

Results flagged for a closer look

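ENSRNOT00000000792 measured 9.07 CPM in the liver MS-8 at 8 h after the high dose, far below the other 4 livers of its group. ENSRNOT00000075989 measured 35.7 CPM in the liver MS-26 at 24 h after the high dose, far above the other 4. Both were found among 38 groups of samples examined for a value that stands apart (Dixon's test), which chance finds in about 1 in 20 groups. For 17 members the change at 8 h after the high dose was larger in liver than in kidney, and for 16 it was larger in liver than in heart, by the test of the difference (edgeR, adjusted p of at most 0.01). In MS-1, the library labelled as a vehicle liver at 24 h and left out of the selection, 29 members were at 1 CPM or more.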

How the results depend on the processing

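The number of members depended on the limits of the selection. From 50, or 0.125% of 40071 transcripts, it became 28 (0.0699%) with a vehicle limit of 0.05 CPM and grew by 52 to 0.255% with 0.2 CPM. It was 117 (0.292%) with a high-dose limit of 0.5 CPM, 16 (0.0399%) with 2 CPM, 12 (0.0299%) with MS-1 kept, 29 (0.0724%) with TMM-scaled totals, and 50 to 81 (0.125% to 0.202%) with single livers left out. With DESeq2 the members called higher were 1 in heart at 8 h and 1 at 24 h after the high dose, 3 in kidney at 8 h after the high dose, 2 at 8 h after the low dose, 9 in kidney at 24 h after the high dose, and 7 for the high against the low dose in liver at 8 h. Over all transcripts tested, DESeq2 called higher, in the same order, 36 of 17519, 200 of 17574, 336 of 18597, 80 of 18829, 584 of 18967, and 582 of 16818. No such share is at hand for fits with all 15 samples, with a sample left out, or with the term for library numbers. With all 15 samples in the fit they were 2 in kidney at 8 h after the high dose, 1 after the low dose, and 22 in liver at 8 h after the low dose. Leaving out single samples gave 18 to 24 members in liver at 8 h after the high dose, 11 to 14 after the low dose, 9 to 17 for the low dose at 24 h, 1 to 5 for high against low dose, 2 to 6 in kidney at 24 h, 1 in kidney at 8 h after the high dose in each case, 13 to 19 for liver against kidney, 15 to 18 for liver against heart, and 0 in each remaining comparison of kidney and heart. With 0.5 CPM in place of 1 CPM, 21 members reached the limit in each low-dose liver at 24 h, and with single livers left out 7 to 11 reached 1 CPM. Near zero in the vehicle livers at 8 h were 23 to 24 with a liver left out and 31 with a limit of 0.2 CPM. Of 351 settings over 25 comparisons of named members, 328 had the same outcome as the main edgeR test, whether called or not called. The other 23 kept the direction but not the call, all 23 for ENSRNOT00000061580, ENSRNOT00000073216, or ENSRNOT00000010141. The kidney comparison of ENSRNOT00000080043 was not among the 25. The causes were not tested. The summed level of each gene was not run. At a level of 0.1 CPM the depth gave only a few counts per library.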
